A study of Mus musculus with 26 samples.

Results

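Cadherins and protocadherins other than Cdh1 (E-cadherin) were followed through chemical reprogramming, a procedure that uses small molecules to bring mouse fibroblasts to pluripotency. The genes were taken by name, as every gene whose symbol is Cdh followed by a number or begins with Pcdh, with Cdh1 left out. The rule found 71 of the 16718 genes in the expression table. They are 19 cadherins and 52 protocadherins. The cadherins comprise 3 type I classical genes (Cdh2, Cdh3 and Cdh4), 13 type II classical genes and 3 others (Cdh13, Cdh17 and Cdh26). The protocadherins comprise 11 genes that stand alone in the genome and 41 that lie in the alpha (6), beta (14) and gamma (21) gene clusters.

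RNA was sequenced in 26 libraries. Cells that received every chemical but BrdU, an analogue of thymidine that is built into DNA, were sampled once each on days 6, 12, 18, 22, 30, 36 and 40. Cells that received every chemical but Chir, which blocks GSK3 and so stabilises beta-catenin, were sampled once each on days 6, 12, 18, 22 and 30. Cells given all chemicals were sampled on the same 7 days as those without BrdU. CiPSC (chemically induced pluripotent stem cells) have 6 libraries, for which the labels state neither line nor passage, and MEF, the mouse embryonic fibroblasts of day 0, have 1. All 3 courses are labelled as reprogramming cells, the courses lacking BrdU or Chir differ by label from the full course only in that omission, and the labels give no genotype, strain, clone or sex. Each day of a course is a single library, and the days stand in for replicates. The p-values below measure the spread over days, which are not independent cultures, and may be too small.

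The deposited values are whole-number scores with nearly the same distribution in all libraries. Library totals lay between 4143561 and 4162600, the highest score was 21988, and exactly 10 genes held that score in each library, so higher expression than that could not be recorded. The depth of the libraries is unknown and no counting error can be given, and a score of 0 says only that the gene is listed at 0. The labels fitted the markers. Summed over 6 pluripotency markers, CiPSC libraries scored 23799 to 40131 and MEF 13, while 6 fibroblast markers summed to 45 to 237 in CiPSC and 49473 in MEF. The pluripotency sum on day 40 was 39 without BrdU and 4308 with all chemicals, and on day 30 it was 40 without Chir and 877 with all chemicals. In bulk RNA, fewer cells of a type and less RNA per cell cannot be told apart.

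Annotation placed 43 of the 71 genes on chromosome 18 (GRCm38, GENCODE M21). The alpha members span 36946088 to 37187663, the beta members 37300799 to 37521419 and the gamma members 37661775 to 37841873. The 6 alpha genes have 2860 exon bases in common and the 21 gamma genes 2116, a median of 53.6% and 44.8% of a gene's exon bases shared with other members. Reads from those shared exons cannot be assigned to 1 gene, so single alpha and gamma values are uncertain and members of a cluster are not independent. The 14 beta genes have no exon bases in common and 13 of them are annotated with a single exon.

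Classical cadherins are calcium-dependent adhesion receptors that bind the same cadherin on the next cell and link through catenins to actin. Fibroblasts and other mesenchymal cells carry N-cadherin (Cdh2) and cadherin-11 (Cdh11), whereas pluripotent and epithelial cells carry E-cadherin, and the exchange of these is a hallmark of transitions between mesenchymal and epithelial states. Protocadherins share the extracellular cadherin repeats but not the catenin-binding tail, and are best known from the nervous system. In the alpha and gamma clusters each gene has its own first exon and promoter, spliced to constant exons that all genes of the cluster share. In the beta cluster each gene stands by itself. Promoter choice in the clusters depends on CTCF, cohesin and DNA methylation.

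Promoter windows of 300 bases, from 250 before to 50 after the start (RefSeq GRCm38.p6), were examined for 20 of the 71 genes. All 71 genes have a RefSeq position, so the 20 are a subset of those annotated. No gene of the chromosome that carries the protocadherin clusters was examined, which leaves out every clustered protocadherin, Cdh2 and Pcdh1. Cdh11, on another chromosome, is not among the 20 either. The CpG and motif counts below therefore say nothing about those genes. The windows of 4 genes on chromosomes 3, 5 and 15 are shown. The 4 were picked because they were called higher without BrdU than with all chemicals. A further reason was that their CpG content, the substrate of DNA methylation, differs widely. Capitals mark CpG. Pcdh10 lies at chr3:45378148-45378447 (plus strand), Pcdh18 at chr3:49757267-49757566 (minus), Pcdh7 at chr5:57717831-57718130 (plus) and Cdh10 at chr15:18820079-18820378 (plus).
Pcdh10: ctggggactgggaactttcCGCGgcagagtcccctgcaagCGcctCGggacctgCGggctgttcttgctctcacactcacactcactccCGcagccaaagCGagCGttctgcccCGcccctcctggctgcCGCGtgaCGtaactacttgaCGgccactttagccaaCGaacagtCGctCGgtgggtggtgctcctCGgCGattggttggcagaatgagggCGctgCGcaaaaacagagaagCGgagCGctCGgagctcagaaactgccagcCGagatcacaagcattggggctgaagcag
Pcdh18: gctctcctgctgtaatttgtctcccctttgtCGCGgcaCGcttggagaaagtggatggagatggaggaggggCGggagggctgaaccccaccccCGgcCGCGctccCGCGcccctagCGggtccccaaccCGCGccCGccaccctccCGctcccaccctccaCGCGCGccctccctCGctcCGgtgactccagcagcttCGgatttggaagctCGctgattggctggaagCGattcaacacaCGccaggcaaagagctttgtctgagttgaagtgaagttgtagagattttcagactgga
Pcdh7: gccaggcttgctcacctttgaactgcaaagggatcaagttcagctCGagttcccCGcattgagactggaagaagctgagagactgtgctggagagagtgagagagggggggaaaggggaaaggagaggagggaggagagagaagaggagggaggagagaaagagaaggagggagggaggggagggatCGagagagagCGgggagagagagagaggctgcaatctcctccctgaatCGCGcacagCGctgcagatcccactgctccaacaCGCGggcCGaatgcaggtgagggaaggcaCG
Cdh10: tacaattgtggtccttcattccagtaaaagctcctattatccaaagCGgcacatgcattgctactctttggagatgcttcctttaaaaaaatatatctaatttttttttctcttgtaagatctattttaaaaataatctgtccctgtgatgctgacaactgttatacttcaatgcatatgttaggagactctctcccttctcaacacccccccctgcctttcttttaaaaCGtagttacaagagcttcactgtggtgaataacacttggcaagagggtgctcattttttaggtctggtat
Pcdh10 has 24 CpG and Pcdh18 has 23, against a median of 7 over the 32851 windows of all genes, and 20% of all windows have at least as many as Pcdh10. Pcdh7 has 11 and Cdh10 has 2, and 85.9% of all windows have at least as many as Cdh10. Since the 4 genes were picked for being higher without BrdU, their shared direction says nothing about CpG content. The windows richest in CpG among the 20 genes belong to Cdh22 (38), which fell below the filter in that comparison, and Cdh24 (30), which was not called. On both strands, CACCTG, an E-box of the kind bound by Snail and Zeb factors, stood in 3 of the 20 genes (Cdh7, Pcdh15 and Pcdh7) and in 20.2% of all windows. CATTCC, the core bound by TEAD factors, stood in 3 of 20 (Cdh10, Cdh20 and Cdh9) and in 14.7% of all windows. ATCAAAG, a TCF/LEF core, and TGANTCA, an AP-1 site, matched none of the 20, against 3.73% and 7.81% of all windows.

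**Figure D1:**
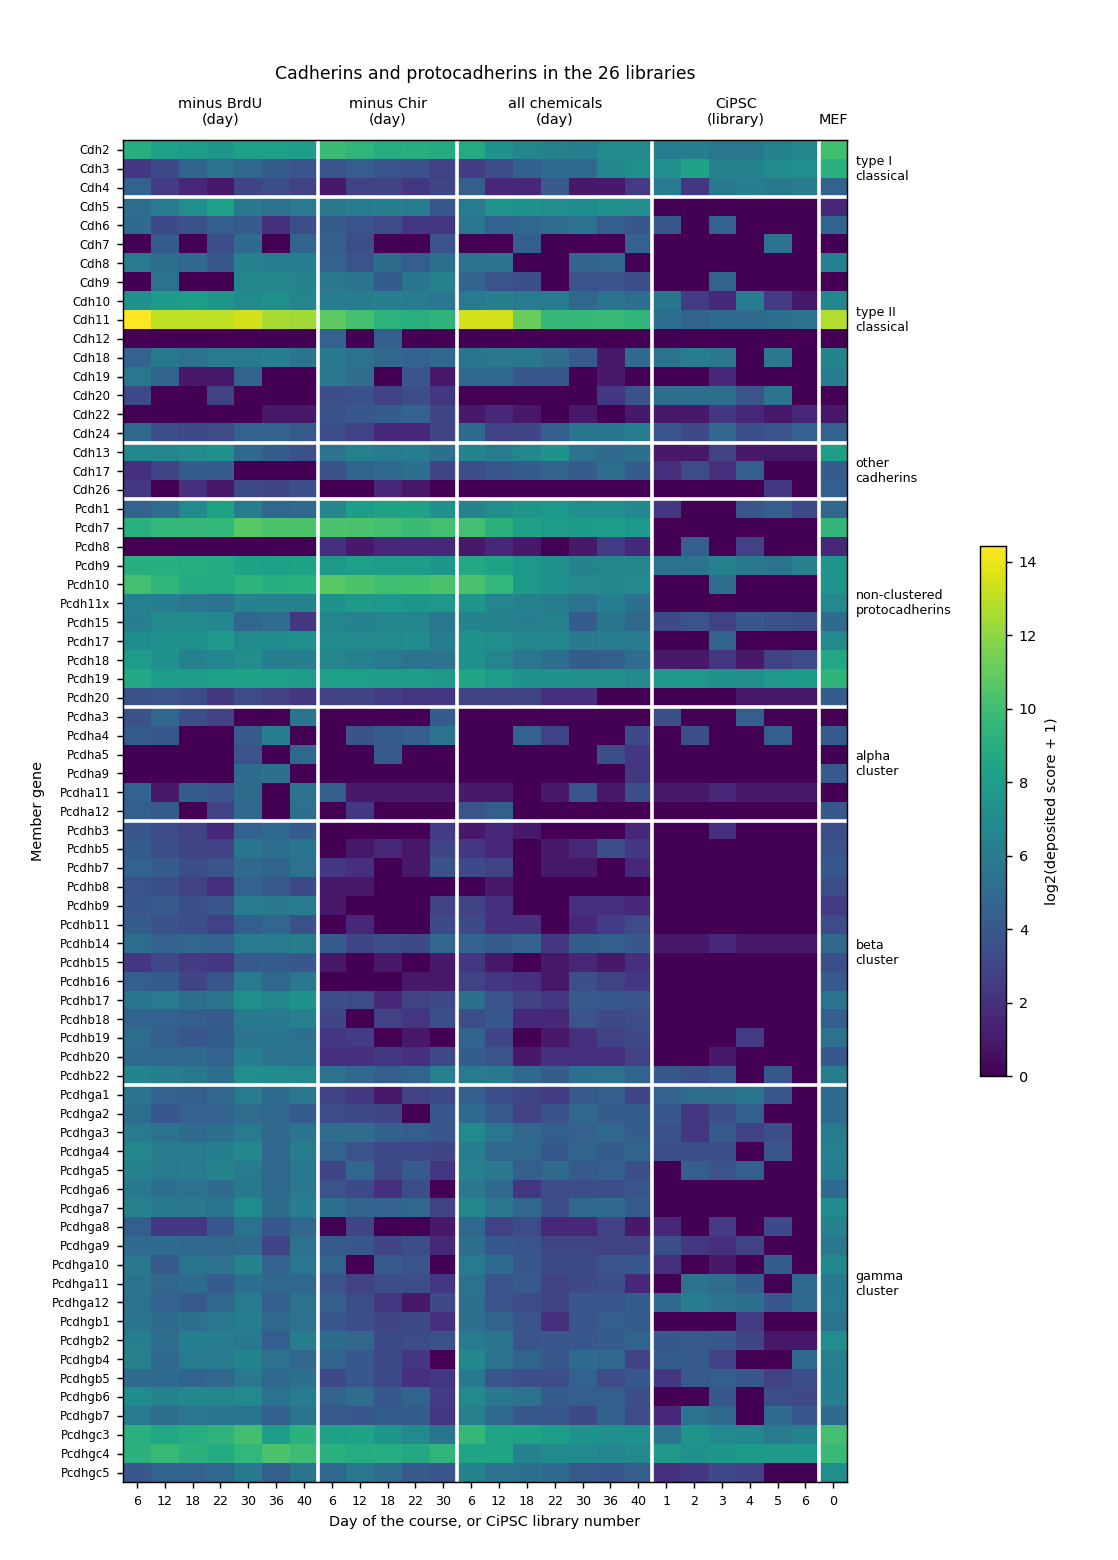
Heat map of log2(score + 1) for the 71 genes (down the page, by subfamily) in the 26 libraries (across, by course and day, then CiPSC and MEF). The beta cluster is brighter in the 7 libraries without BrdU than in the other courses, and dark in CiPSC, where 9 of 14 genes are listed at 0 in all 6 libraries.

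The first question was what leaving out BrdU did to these genes over 7 matched days. Of 68 genes that passed the filter (mean score of at least 1), 43 were higher and 3 lower without BrdU at an adjusted p under 0.05 (limma, Benjamini-Hochberg over all genes). Among all 16308 genes tested, 42.6% were called, 21.1% higher and 21.5% lower. The median log2 change was 1.23 over the 68 genes and 0.0158 over all genes. Pcdh8, Cdh12 and Cdh22 fell below the filter. Fibroblast markers moved with these genes: 4 of 6 were higher and none lower, and their sum was 23607 to 47718 without BrdU and 8139 to 21989 with all chemicals, with no marker at 0 in any of these libraries. The sum hides a split among the markers. Thy1 scored 28, 14 and 24 on days 30, 36 and 40 without BrdU and 176, 269 and 255 with all chemicals, and Pdgfra scored 1920, 942 and 1290 without BrdU and 5536, 3094 and 3426 with all chemicals. Over all 7 days neither was called. Col1a1 and Col1a2, both at the ceiling of 21988 on those 3 days without BrdU, make up most of the late sums. The part of these markers in the result was not tested. With days 6 to 30 only, 22 genes were higher and 1 lower, and the calls on Cdh8, Cdh11, Cdh17, Cdh26, Pcdh1, Pcdh7, Pcdh10 and Pcdh19 described below were among those lost. Without day 22, 5 were lower.

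All 14 beta cluster genes were higher without BrdU, with a median log2 change of 2.49. Each of these 14 calls held whichever day was left out, and 12 held with days 6 to 30 only. The median beta score by day lay between 10 and 51.5 without BrdU and between 1 and 8 with all chemicals. On every single day 13 of the 14 were higher. On days 30, 36 and 40 all 14 had their 3 values without BrdU above their 3 values with all chemicals. Over all 7 days the ranges of 5 genes did not overlap. The share of all genes with such day-by-day patterns was not computed, so these counts have no background beside them. Of all genes tested, 21.1% were called higher without BrdU.

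Pcdhb17 scored 47, 58, 36, 46, 146, 98 and 162 on the 7 days without BrdU and 39, 12, 6, 4, 16, 15 and 13 with all chemicals. It was higher without BrdU on each day, least on day 6, and its ranges overlapped only through that day (log2 change 2.48 ± 0.37 standard error, adjusted p = 0.00151). Pcdhb9 scored 14, 16, 10, 13, 62, 53 and 64 without BrdU and 6, 3, 0, 0, 3, 3 and 2 with all chemicals, with no overlap (3.23 ± 0.44, adjusted p = 0.00107). The other beta genes had changes between 1.22 (Pcdhb22) and 3.25 (Pcdhb8). Pcdhb8 was listed at 0 on 6 of 7 days with all chemicals and at 1 on the other, so the size of its change rests on the pseudocount. Without BrdU, the score on day 40 was above that of MEF in 12 of 14 beta genes, and with all chemicals in 0 of 14. Outside the beta cluster it was above MEF in 4 of 6 alpha, 4 of 21 gamma and 5 of 11 unclustered protocadherins. With all chemicals these were 2, 0 and 1. Among type II cadherins 3 of 13 were above MEF without BrdU and 5 with all chemicals, and among the other cadherins 0 in both. A gene called higher without BrdU can thus lie below MEF. Each side is 1 library, no test was run and the share of all genes was not computed.

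**Figure D2:**
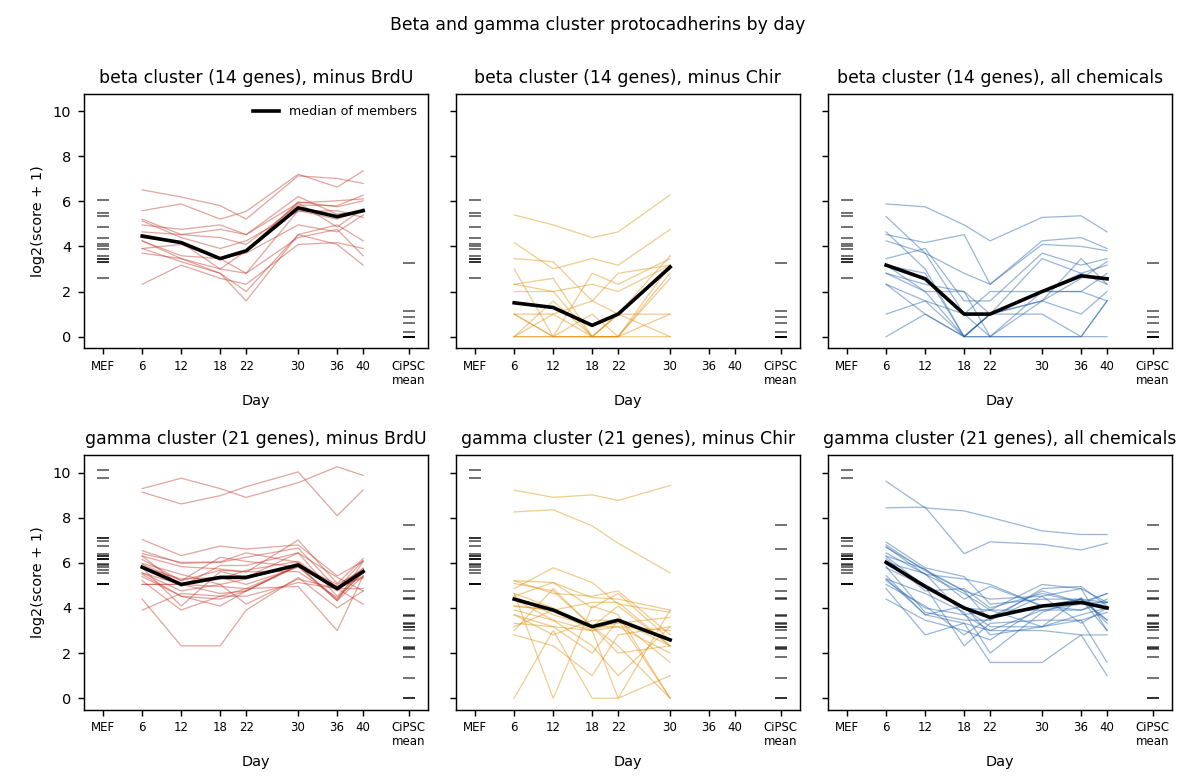
Scores of beta (upper panels) and gamma (lower panels) cluster genes by day as log2(score + 1), 1 thin line per gene and the median in black, with MEF at the left and the mean of 6 CiPSC libraries at the right as dashes. The median beta score is 10 on day 18 and 13 on day 22 without BrdU and 1 on both days with all chemicals.

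In the gamma cluster 15 of 21 genes were higher without BrdU and none lower (median 1.16). Pcdhgc4, needed for the survival of certain neurons in mice, scored 626, 862, 626, 477, 750, 1226 and 939 without BrdU and 346, 354, 84, 121, 112, 94 and 116 with all chemicals. These ranges did not overlap (2.35 ± 0.32, adjusted p = 0.00107). Pcdhgc3, beside it, had a change of 1.02 ± 0.33 (adjusted p = 0.0341), a call kept in 2 of the 7 fits that leave out a day and lost with days 6 to 30 only, and Pcdhgc5, the last gene of the cluster, was not called (-0.12 ± 0.47, adjusted p = 0.852). The gamma count fell to 9 without day 18, 8 without day 22, 7 without day 30, 8 without day 40 and 4 with days 6 to 30 only. In the alpha cluster 2 of 6 genes were higher. Of these Pcdha3 was listed at 0 on all 7 days with all chemicals and at 0 to 46 without BrdU, so no fold is given, and Pcdha11 (1.82 ± 0.63, adjusted p = 0.044) kept its call in only 2 of the 7 fits that leave out a day.

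Of the protocadherins outside the clusters, 7 of 10 tested were higher without BrdU and 1 lower. Many of these proteins recruit the actin-regulating WAVE complex through their tails. Pcdh9 scored 554, 518, 494, 476, 323, 306 and 315 without BrdU and 419, 332, 206, 157, 88, 94 and 92 with all chemicals. It declined in both courses and was higher without BrdU on all 7 days (1.32 ± 0.20, adjusted p = 0.00144). Pcdh18 (1.30 ± 0.28, adjusted p = 0.00651) and Pcdh19, the gene of an X-linked epilepsy in humans (0.72 ± 0.15, adjusted p = 0.00609), were also higher on every day. Pcdh7 (1.48 ± 0.43, adjusted p = 0.023) kept its call in 3 of the 7 fits that leave out a day.

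Pcdh10, a protocadherin of the developing brain, scored 1128, 728, 466, 448, 650, 540 and 598 without BrdU and 1261, 748, 232, 156, 108, 101 and 108 with all chemicals. It began slightly lower without BrdU on days 6 and 12 and was higher from day 18 on (1.39 ± 0.37, adjusted p = 0.0145). Pcdh1 went the other way and was lower on 6 of 7 days, with scores of 22, 34, 116, 312, 66, 28 and 30 without BrdU and 88, 132, 197, 208, 148, 157 and 104 with all chemicals (-1.34 ± 0.33, adjusted p = 0.0109). Its peak on day 22 was the exception. Pcdh11x (-0.07 ± 0.30) and Pcdh15, part of the tip link of inner-ear hair cells (-0.19 ± 0.37), were not called.

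Among classical cadherins, Cdh11 scored 21988, 8303, 8303, 8303, 11324, 6078 and 5522 without BrdU and 11324, 11324, 2212, 788, 825, 855 and 706 with all chemicals. With all chemicals it fell after day 12, and without BrdU it stayed near or above 6860, its MEF score, until day 30 (2.20 ± 0.47, adjusted p = 0.00634). Its day 6 score without BrdU is at the ceiling, and scores near the top of the scale take few values, so several days are equal. Cdh2 scored 523, 306, 246, 194, 287, 288 and 267 without BrdU and 448, 168, 93, 79, 71, 108 and 120 with all chemicals, higher on all 7 days (1.19 ± 0.19, adjusted p = 0.00188). Cdh10, a type II cadherin of brain, scored 150, 228, 267, 194, 114, 143 and 99 without BrdU and 63, 71, 60, 60, 28, 46 and 34 with all chemicals, with no overlap (1.69 ± 0.14, adjusted p = 0.000325). Cdh8 was higher (2.60 ± 0.77, adjusted p = 0.0236), a call kept in 4 of the 7 fits that leave out a day.

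Cdh6 (K-cadherin) was lower without BrdU on all 7 days, with a range of 3 to 32 and a median of 11 without BrdU and of 14 to 50 and 28 with all chemicals (-1.16 ± 0.28, adjusted p = 0.0107). Cdh17, the liver and intestine cadherin, was lower (-2.35 ± 0.70, adjusted p = 0.0245), a call kept in 4 of the 7 fits that leave out a day. Cdh26 was called higher at 0 to 10 without BrdU, but is listed at 0 on all 7 days with all chemicals. Cdh3, the placental cadherin of epithelia (-0.84 ± 0.48, adjusted p = 0.179), Cdh4 (0.39 ± 0.62), Cdh13, which has a lipid anchor in place of a tail (-0.22 ± 0.28), and Cdh5, the endothelial cadherin (-0.83 ± 0.31, adjusted p = 0.0555), were not called. Cdh1, outside the set, was lower without BrdU (-2.82 ± 0.57, adjusted p = 0.00503).

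**Figure D3:**
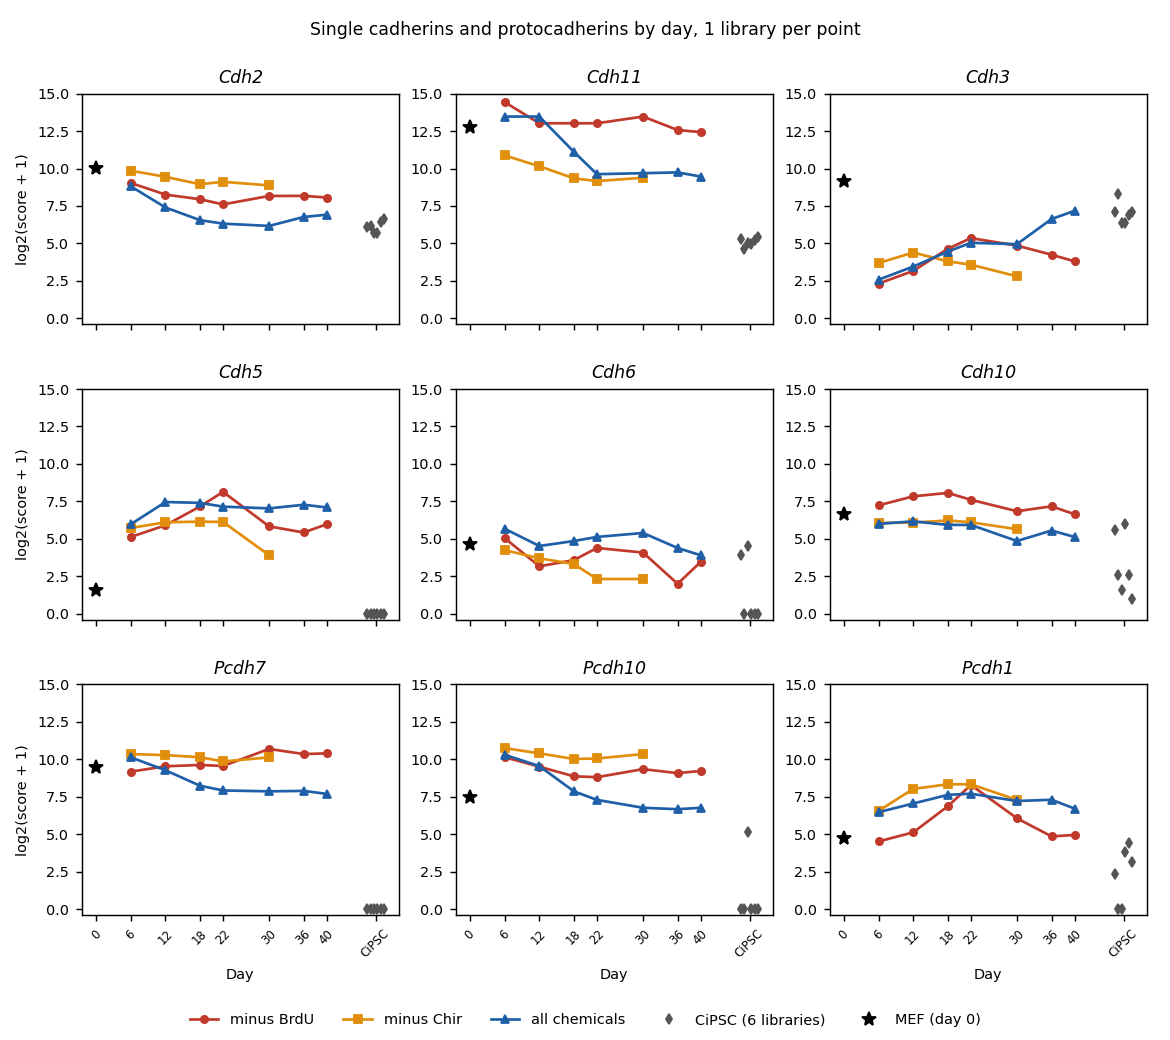
Scores of 9 genes by day as log2(score + 1) in the 3 courses (lines, 1 library per point), CiPSC (diamonds, 6 libraries) and MEF (star, day 0). Without BrdU, Cdh11 stays between 5522 and 21988, while with all chemicals it falls to 706 on day 40. Cdh3 reaches 13 without BrdU and 144 with all chemicals on day 40.

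A single model tested whether BrdU omission acted differently late (days 30, 36 and 40) than early (days 6 to 22). Among 68 genes 5 had a higher and 1 a lower late effect, or 8.82% called. Of all genes 13.6% were called (7.02% higher and 6.58% lower), so the members' share was not above the background. The log2 difference between late and early effect was 2.24 ± 0.61 for Pcdhgc5 (adjusted p = 0.0434), 2.08 ± 0.55 for Pcdh7 (0.0403), 1.90 ± 0.39 for Pcdh10 (0.0174), 1.50 ± 0.33 for Pcdh11x (0.0208) and 1.16 ± 0.29 for Pcdhb22 (0.034). For Pcdh10 the early effect was 0.58 and the late effect 2.48. Cdh2 (0.58), Cdh3 (-1.94), Cdh4 (2.05), Cdh5 (-0.98), Cdh6 (-0.38), Cdh11 (1.74) and Cdh13 (-1.26, adjusted p = 0.0558) were not called. Cdh17 had the lower late effect (-3.88 ± 0.60, adjusted p = 0.00597): it scored 0 on days 30, 36 and 40 without BrdU and 18, 36 and 18 with all chemicals. The Cdh17 call held whichever day was left out, but with a group at 0 its size rests on the pseudocount, and with a pseudocount of 5 it was -2.01 (adjusted p = 0.0125). The count of higher late effects was 1 without day 30, 36 or 40, 3 without day 12 and 11 without day 22, and that of lower late effects was 3 without day 30.

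Leaving out Chir was compared with the full course over 5 matched days. Of 67 genes tested, 8 were higher and 9 lower without Chir. Among all 16248 genes 26.5% were called (13.5% higher and 12.9% lower), so the members' share was near the background. The number of calls depended on which day was left out, among members as among all genes. Without day 18 none of the members was called in either direction (25 of all genes). Without day 22 only 1 was higher (226 of all genes), and without day 30 there were 4 higher and 5 lower. Lower calls also numbered 5 without day 6 and 4 without day 12. No call on a member held whichever day was left out, but each called member kept the direction of its change.

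Cdh2 scored 923, 698, 494, 553 and 468 without Chir and 448, 168, 93, 79 and 71 with all chemicals. It was higher without Chir on all 5 days, without overlap (2.20 ± 0.26, adjusted p = 0.00763), and kept its call in 4 of the 5 fits that leave out a day. Pcdh10 scored 1722, 1348, 1040, 1064 and 1306 without Chir and 1261, 748, 232, 156 and 108 with all chemicals (1.96 ± 0.44, adjusted p = 0.0225). Pcdh7 scored 1306, 1245, 1128, 928 and 1120 without Chir and 1120, 618, 301, 242 and 232 with all chemicals (1.47 ± 0.30, adjusted p = 0.0179). Without Chir both genes kept to a narrow range over time, and with all chemicals both fell after day 6. Pcdhgc4 (1.65 ± 0.35), Pcdh11x (1.25 ± 0.32), Cdh9 (2.36 ± 0.69) and Cdh22 (2.94 ± 0.48) were also higher, with adjusted p of 0.0198, 0.0309, 0.0427 and 0.0121.

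Cdh22 scored 11, 14, 18, 22 and 7 without Chir and 0 to 2 with all chemicals. Cdh20 scored 10, 11, 6, 10 and 4 without Chir and is listed at 0 on these 5 days with all chemicals. Both are type II cadherins of the nervous system, and both levels are low. Over days 6 to 30, markers of neural cells summed to 449 to 1238 without Chir and 73 to 454 with all chemicals, and 1 of 5 tested was higher (Stmn2, 3.36 ± 0.38, adjusted p = 0.00699). Stmn2, at 334 to 1019 without Chir, made up most of that sum, and Sox1 and Dcx were listed at 0 without Chir. Of 7 skeletal muscle markers listed 3 were measured, and their sums were 372 to 515 without Chir and 33 to 160 with all chemicals. Des, at 312 to 479 without Chir, made up most of these. Myod1 was higher without Chir on days 6 to 22 (22, 44, 150 and 140 against 14, 8, 13 and 5). Acta1 was lower on days 18, 22 and 30 (2, 3 and 12 against 13, 22 and 26). Sums of 5 macrophage markers were 123 to 331 without Chir and 26 to 71 with all chemicals. Their part in the result was not tested.

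The lower calls without Chir were Cdh6 (-1.93 ± 0.41, adjusted p = 0.0195), Cdh11 (-1.69 ± 0.45, 0.0331), Cdh24 (-1.68 ± 0.48, 0.0388), Cdh5 (-1.40 ± 0.38, 0.0354) and, in the clusters, Pcdhb16, Pcdhga4, Pcdhga5, Pcdhgb4 and Pcdhgc3. Cdh11 scored 1872, 1136, 650, 572 and 668 without Chir and 11324, 11324, 2212, 788 and 825 with all chemicals, so the gap was wide on days 6 and 12 and narrow from day 22. Cdh5 scored 52, 68, 70, 69 and 14 without Chir and 62, 175, 168, 141 and 130 with all chemicals. The sum of 6 endothelial markers was 65 to 289 without Chir and 131 to 271 with all chemicals on the same days. Cdh3 (-0.44 ± 0.55), Cdh4 (-0.10 ± 0.84) and Cdh13 (-0.52 ± 0.28) were not called. Of 12 beta genes tested 1 was lower, and of 21 gamma genes 4 were lower and 1 (Pcdhgc4) higher.

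**Figure D4:**
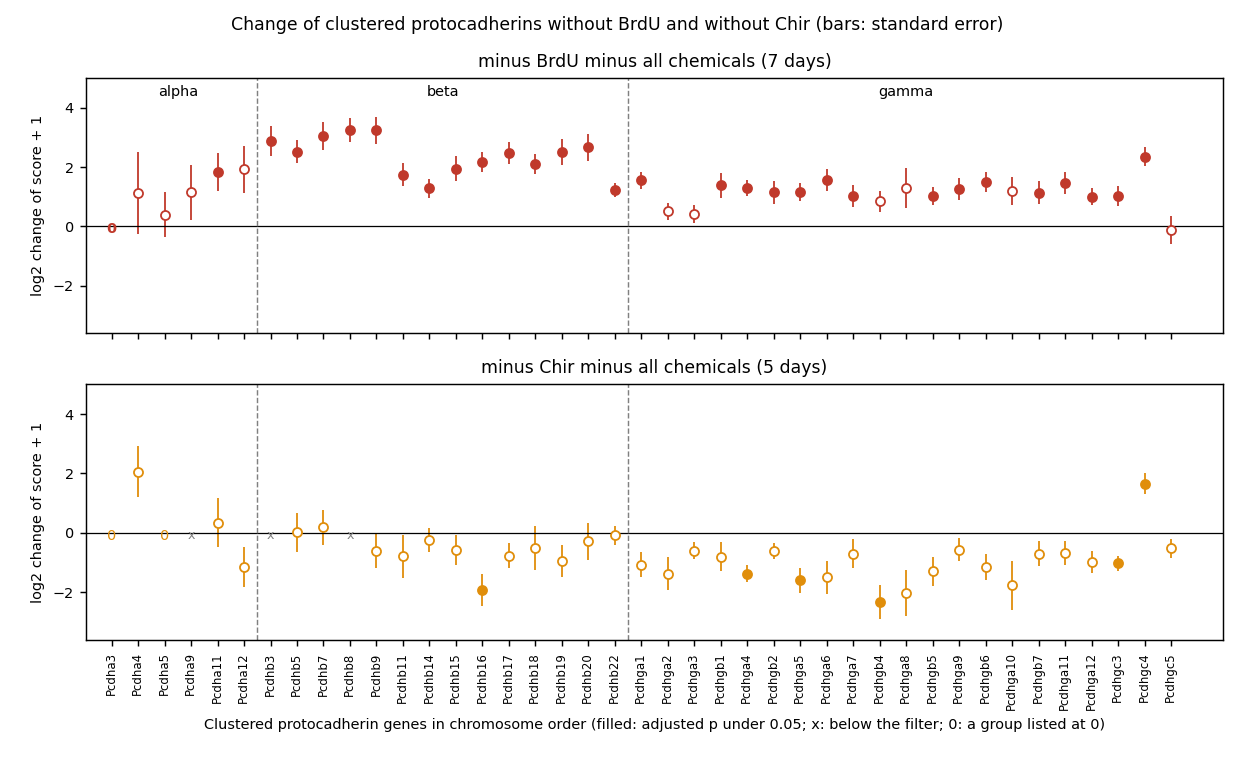
Log2 change of each clustered protocadherin, in chromosome order, without BrdU (above) and without Chir (below) against all chemicals, with bars for the standard error. A 0 marks a gene with a group listed at 0 throughout, for which no fold is given. All 14 beta genes are filled and above 0 without BrdU, and 1 of 12 is filled, below 0, without Chir.

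Both comparisons use the same full-course libraries, so their results are not independent. Side by side, Pcdhgc4, Pcdh10, Pcdh7 and Cdh2 were called higher in both and Cdh6 lower in both. Cdh11, Pcdhb16, Pcdhga4, Pcdhga5 and Pcdhgc3 were called higher without BrdU and lower without Chir, where none of these calls held in every fit that leaves out a day.

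The courses lacking Chir and BrdU were therefore also compared with each other directly, on the 5 shared days. All 71 genes were tested, 9 were higher and 40 lower without Chir than without BrdU, and among all 16087 genes 32.2% were called (16.9% higher and 15.2% lower). All 14 beta genes were lower without Chir (median -2.73), on every day, and all 14 calls held whichever day was left out. The share of all genes that were lower on every day was not computed. In the gamma cluster 19 of 21 were lower and none higher, and 10 of the 19 calls held in every such fit. Pcdhgc4 was not called (-0.29 ± 0.14, adjusted p = 0.153). Of 6 fibroblast markers 5 were lower without Chir than without BrdU. Their sum was 6112 to 17570 without Chir and 23607 to 47718 without BrdU on these days. Against all chemicals 1 of 6 was lower without Chir and 0 higher (median log2 change 0.262). The part of these markers in the result was not tested. The number of higher calls fell to 5 without day 18.

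Pcdhb16 scored 0, 0, 0, 1 and 1 without Chir and 20, 17, 7, 13 and 60 without BrdU (-3.86 ± 0.44, adjusted p = 0.00125). Cdh11 scored 572 to 1872 without Chir and 8303 to 21988 without BrdU (-3.61 ± 0.19, adjusted p = 9.83e-05). Cdh10 was lower (-1.49 ± 0.16, adjusted p = 0.000948), with scores of 49 to 74 without Chir and 114 to 267 without BrdU. Each of the 3 genes had separate ranges and kept its call whichever day was left out. Cdh2 was higher without Chir than without BrdU (1.04 ± 0.14, adjusted p = 0.00218), and so were Pcdh10 (0.98 ± 0.13, 0.00182) and Pcdh11x (1.62 ± 0.19, 0.00142), on all 5 days each. Cdh22, at 7 to 22 without Chir, and Pcdh8, at 1 to 3, are listed at 0 on these days without BrdU. Cdh9 (3.11, adjusted p = 0.05), Cdh20 (1.93 ± 0.57), Cdh17 (1.60 ± 0.39) and Pcdh1 (1.54 ± 0.37) complete the higher calls. Of the 5 fits that leave out a day, Cdh9 kept its call in 2, Cdh20 in 1, Cdh17 in 4 and Pcdh1 in 3. Without day as a block all 4 calls were lost, with adjusted p of 0.0963 for Cdh9, 0.0639 for Cdh20, 0.153 for Cdh17 and 0.0956 for Pcdh1. Cdh3 (-0.41 ± 0.59), Cdh4 (-0.11 ± 0.74), Cdh5 (-0.83 ± 0.42), Cdh6 (-0.87 ± 0.44) and Cdh13 (-0.70 ± 0.27) were not called.

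**Figure D5:**
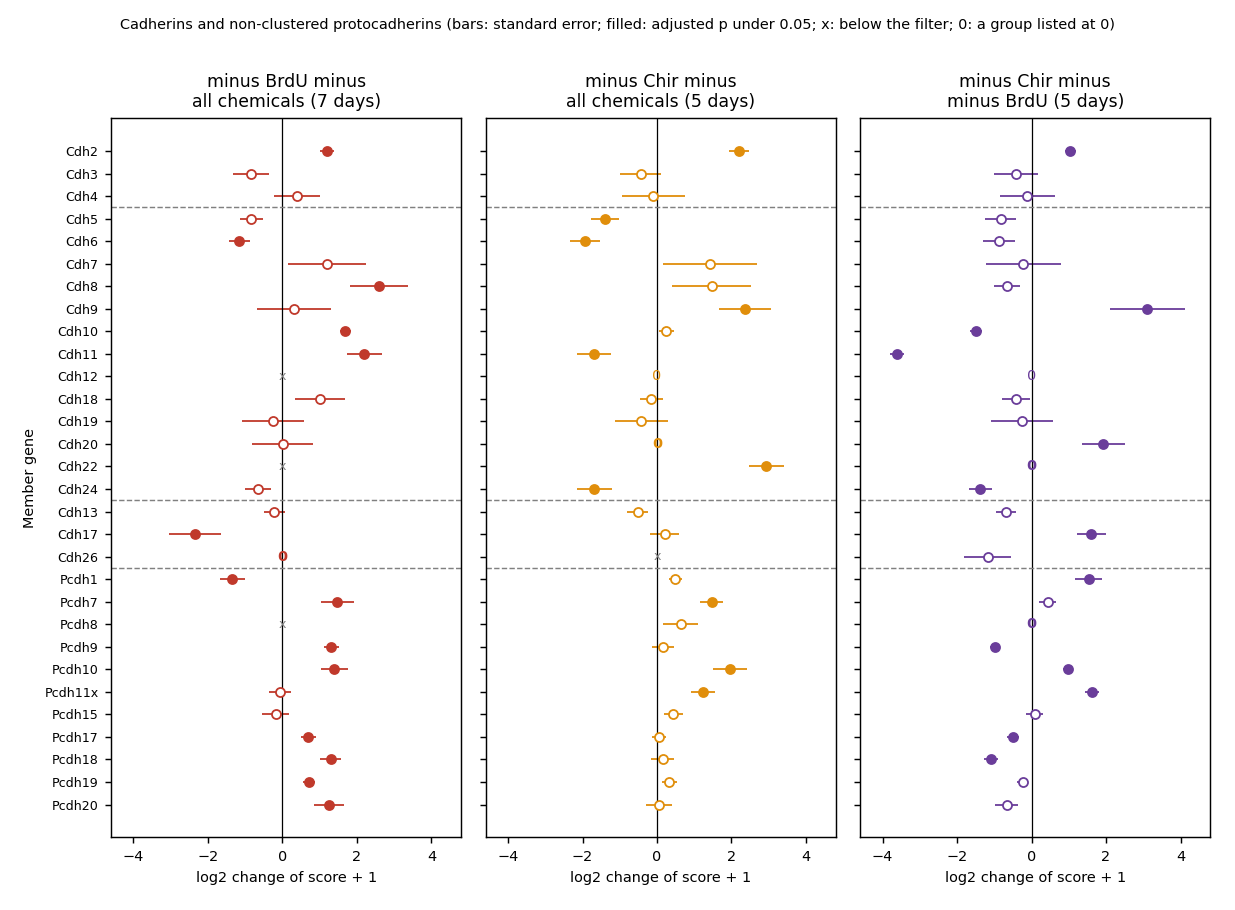
Log2 change with its standard error for the 19 cadherins and 11 unclustered protocadherins in the 3 comparisons between courses. Cdh2 lies above 0 in all 3 panels (1.19, 2.20 and 1.04), and Cdh11 above 0 without BrdU (2.20) but below 0 without Chir (-1.69) and for Chir against BrdU omission (-3.61). A 0 marks a gene with a group listed at 0 throughout.

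Over the full course, with MEF as day 0, no member had a rising trend and 24 of 68 had a falling one. Of all 16314 genes 16.7% had a trend (9.31% rising and 7.42% falling). The falling set held 11 of 21 gamma, 7 of 11 unclustered and 1 of 5 alpha protocadherins and 0 of 14 beta genes. Slopes per 10 days were -1.59 ± 0.23 for Cdh19, a cadherin of Schwann cell precursors (adjusted p = 0.00337), -1.10 ± 0.21 for Cdh11 (0.00959), -0.97 ± 0.17 for Pcdh18 (0.0067), -0.74 ± 0.21 for Cdh2 (0.04) and -0.72 ± 0.08 for Pcdhgc3 (0.002). Pcdhgc3 scored 1102 in MEF and 782, 346, 315, 258, 170, 152 and 152 from day 6 to day 40. Cdh2 kept its call in 3 of the 8 fits that leave out a library and Cdh11 in all 8. The number of falling genes was 15 without MEF, 13 without day 6, 15 without day 12, 14 without day 30 and 15 without day 36.

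Cdh3 had no linear trend (0.22 ± 0.49), and its course was not monotonic: it scored 564 in MEF and 5, 10, 21, 32, 30, 98 and 144 from day 6 to day 40. Without MEF it was the only member with a rising trend (1.26, adjusted p = 0.00294). Cdh5 scored 2 in MEF and 62 on day 6 and lay between 130 and 175 from day 12 on, without a called trend (0.90 ± 0.36, adjusted p = 0.118). Cdh13 fell (-0.60 ± 0.17, adjusted p = 0.0403), a call kept in 3 of the 8 fits that leave out a library and lost without MEF (-0.45, adjusted p = 0.157), and Cdh4 (-0.67 ± 0.32) and Cdh6 (-0.17 ± 0.15) were not called. Cdh1 rose by 2.19 ± 0.33 per 10 days (adjusted p = 0.00461), with scores of 2 in MEF and 2038 on day 40.

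Day 6 was set beside MEF in each course as single libraries, with no test. By at least 1 log2 unit in all 3 courses, 4 of 70 members were above MEF and 6 below, against 8.36% and 5.94% of all genes. Pcdh10 scored 1128 without BrdU, 1722 without Chir and 1261 with all chemicals on day 6, and 177 in MEF. Cdh5 scored 34, 52 and 62 in those courses and 2 in MEF, and Pcdh15 scored 75, 98 and 88, and 32 in MEF. Pcdha11 scored 22, 20 and 1 and was listed at 0 in MEF, so with all chemicals it met the limit through a score of 1. Below MEF were Cdh3 (4, 12 and 5 on day 6 and 564 in MEF), Cdh13, Cdh26, Pcdha9, Pcdhb15 and Pcdhga8. Macrophage markers summed to 152, 322 and 71 in the same 3 courses on day 6 and to 2902 in MEF, and their part in these differences was not tested.

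CiPSC were low in most members. Of the 71 genes 19 were listed at 0 in all 6 CiPSC libraries: 9 beta, 3 alpha and 2 gamma cluster genes, Pcdh7, Pcdh11x, Cdh5, Cdh8 and Cdh12. These have no fold, and Pcdh7 scored 726 in MEF. Of 52 genes that could be tested against MEF, 22 were lower and 1 higher in CiPSC (all genes: 38.5% called, 22.9% higher and 15.6% lower, with a median change of 0.229). The spread in this fit came from CiPSC alone, and the single MEF library was assumed to vary like them.

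Cdh11 scored 24 to 42 in CiPSC (median 34) and 6860 in MEF, a log2 change of -7.65 ± 0.28 (adjusted p = 6.21e-05). Cdh2 scored 50 to 97 (median 69.5) in CiPSC and 1058 in MEF (-3.94 ± 0.39, adjusted p = 0.000982). Both lay far below MEF in all 6 libraries. Cdh13 (-6.77 ± 0.74), Pcdh18 (-6.72 ± 1.06) and Cdh19 (-5.80 ± 0.64) were among the largest falls. In CiPSC Cdh13 scored 1 to 6, Pcdh18 1 to 9 and Cdh19 0 to 2, so the sizes of these falls rest largely on the pseudocount. Pcdh19 fell by 1.79 on the log2 scale and still scored 143 to 227 in CiPSC, and Pcdhgc4 scored 157 to 230 against 878 in MEF (-2.11 ± 0.21, adjusted p = 0.00101). Cdh3 scored 80 to 321 in CiPSC and 564 in MEF (-2.11 ± 0.72, adjusted p = 0.065), and Cdh4 scored 4 to 75 in CiPSC and 24 in MEF. Neither was called in the main fit, and each was called in 1 of 10 alternative fits. For Cdh4 the score of 4 belongs to CiPSC replicate 2 alone. The other CiPSC libraries scored 55 to 75, all above MEF. Its log2 change was 0.73, and reached 1.34 when single CiPSC libraries were left out. The 1 higher call, Pcdha11, is a score of 1 or 2 in CiPSC and 0 in MEF.

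Day 40 with all chemicals was higher than CiPSC in 6 of 52 members and lower in 1 (all genes: 24.5% called, 9.7% higher and 14.8% lower). Cdh11 was 706 on day 40 (4.37 ± 0.28 above CiPSC, adjusted p = 0.00167) and Cdh13 was 38 (3.98 ± 0.74, adjusted p = 0.0169). Pcdhgc4 was the lower one, at 116 (-0.80 ± 0.21, adjusted p = 0.0421), a call lost without CiPSC replicate 1, 3, 4, 5 or 6. Lower calls numbered 2 without replicate 2, and 0 without replicate 1, 3, 5 or 6. Cdh2 at 120 (0.81 ± 0.39, adjusted p = 0.189) and Cdh3 at 144 (0.15 ± 0.72, adjusted p = 0.899) were not called. Cdh4, at 5 on day 40 (-2.79), was not called in the main fit but was in 1 of 10 alternative fits. Cdh5, at 136 on day 40, was listed at 0 in all CiPSC, where endothelial markers summed to 618 to 1163, with Pecam1 at 404 to 540. Cdh13 scored 1 to 6 in CiPSC, so the size of its change rests largely on the pseudocount.

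Day 40 without BrdU was higher than CiPSC in 16 of 52 members and lower in 1 (all genes: 39.8% called, 16.6% higher and 23.2% lower). Cdh11 was 5522 (7.34 ± 0.28, adjusted p = 4.83e-05), Cdh2 was 267 (1.96 ± 0.39, adjusted p = 0.0105), Pcdh10 was 598 (8.37 ± 2.09, adjusted p = 0.0233) and Pcdhb14 was 68 (5.01 ± 0.26, adjusted p = 9.27e-05). Cdh3, at 13, was the lower one (-3.22 ± 0.72, adjusted p = 0.0161). Lower calls numbered 2 without CiPSC replicate 2, 3 or 6. Cdh4 at 6, Cdh6 at 10 and Cdh13 at 11 were not called in the main fit. Pcdh7, at 1348, and Pcdhb17, at 162, were listed at 0 in all CiPSC. Pcdh10 is listed at 0 in 5 of the 6 CiPSC libraries and Pcdhb14 at 1 or 2, so the sizes of their changes rest largely on the pseudocount.

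Genes that work with cadherins were taken from 5 lists. Of 17 chromatin regulators of the protocadherin clusters, 12 were lower without BrdU and none higher (median -1.02 beside 0.0158 over all genes, of which 21.5% were lower). In CiPSC against MEF 9 of the 17 were higher and none lower (median 1.25, beside 0.229 over all genes, of which 22.9% were higher). The 12 regulators lower without BrdU include Nipbl, the cohesin loader (-0.91 ± 0.13, adjusted p = 0.00136), and Smchd1, a silencer of the clusters in mice (-1.19 ± 0.18, 0.0015). Also lower without BrdU were Dnmt3a, a de novo DNA methyltransferase (-1.53 ± 0.24, 0.00179), and Setdb1, a histone H3 lysine methyltransferase (-1.13 ± 0.18, 0.00185). Without Chir 6 of 17 were lower (median -0.67), beside 12.9% of all genes. Among them was Dnmt3b (-2.49 ± 0.55, adjusted p = 0.0212). Without Chir against without BrdU 2 of 17 were called lower, Wiz (-0.44 ± 0.12) and Ehmt1 (-0.46 ± 0.13). This count was not above the share of all genes, 15.2%. The part of these regulators in the members' changes was not tested.

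Counts in the other lists are to be read beside the 42.6% of all genes called without BrdU and the 26.5% called without Chir, and those of the adherens junction partners were near these shares. Of 18 adherens junction partners, 4 were higher and 5 lower without BrdU, and 3 higher and 2 lower without Chir. Ctnnd2, a catenin of neurons, was 1.62 ± 0.17 higher without BrdU (adjusted p = 0.000506), and Afdn, which links nectins to actin, was lower without BrdU (-1.56 ± 0.22, 0.00111) and without Chir (-1.38 ± 0.28, 0.0181). Ctnnb1 (beta-catenin) was not called without BrdU (-0.07 ± 0.21) or without Chir (-0.13 ± 0.29). Of 15 other cadherin superfamily genes, 3 were higher and 4 lower in each comparison. Dchs1, a large atypical cadherin that binds Fat4, was higher without BrdU (1.92 ± 0.28, adjusted p = 0.00141) and lower without Chir (-1.56 ± 0.18, 0.00746). Of 14 protocadherin signalling partners, 4 were higher and 1 lower without BrdU, and 1 was higher without Chir. Of 9 proteases that cut cadherins, 4 were higher and 2 lower without BrdU, and 3 higher and 1 lower without Chir. Mmp14, a membrane matrix metalloprotease, was higher without BrdU (1.97 ± 0.24, adjusted p = 0.000759) and lower without Chir (-0.86 ± 0.12, 0.00995).

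Of the remaining marker lists, 4 of 6 pluripotency and 6 of 6 extraembryonic endoderm genes were lower without BrdU, and 4 of 6 of each were lower without Chir. Endoderm sums were 194 to 423 without BrdU, 568 to 681 without Chir and 395 to 8735 with all chemicals. Of endothelial genes, 1 was higher and 3 lower of 5 without BrdU, and 1 higher and 1 lower of 6 without Chir. None of 6 neural genes was called without BrdU (limma; the neural sum was 112 to 488 without BrdU and 73 to 454 with all chemicals). Of 3 skeletal muscle genes, 1 was lower without BrdU and 1 higher without Chir. Of 5 macrophage genes, 2 were higher in each comparison. Their part in the members' changes was not tested.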

How the data were processed

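Total RNA was sequenced on a NextSeq 500 after TruSeq library preparation, per the labels' protocols. RSEM, Bowtie2, bcl2fastq and the build mm10 are listed, without roles or versions, per the submitters' processing notes. A single table was deposited, and its values are treated here as a score (16718 genes, 26 libraries). Its name says CPM, but near-equal totals, a common maximum and a median of 77 (76 in 1 CiPSC library) show values forced to 1 distribution and rounded. Depth is therefore unknown and no count test could be run. The design had assumed CPM, and the test on log2 values stays the same.

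Scores were analysed as log2(score + 1) with limma 3.58.1 in R 4.3.3 (intensity trend in the prior variance, genes with a mean of at least 1 in the fit, Benjamini-Hochberg adjustment over all genes, called at 0.05, two-sided), so the change of low genes is understated. Tables and figures used Python 3.11.15, pandas 2.3.3 and matplotlib 3.10.9. Course comparisons had day as a block, since the courses share their days by label. CiPSC comparisons pooled MEF, both day 40 libraries and 6 CiPSC libraries. Comparisons with a gene listed at 0 in all CiPSC gave no test. The fits were tested on simulated data. Alternatives were a pseudocount of 5, no filter, a mean of at least 5, no intensity trend, no block, 1 fit over 19 course libraries, days 6 to 30 only and leaving out each day or CiPSC library.

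The members and lists were chosen with earlier results of these data known. Named members are up to 12 largest called changes in each direction and comparison, with Cdh2, Cdh3, Cdh4, Cdh5, Cdh6, Cdh11 and Cdh13 always; further names were picked after their values were seen. Of each list, up to 4 genes with the smallest p are named, and Ctnnb1 was added. Promoters and names were matched to RefSeq GRCm38.p6 and GENCODE M21, in which all 71 genes had an entry.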

Additional observations from a re-analysis of the deposited data

Results flagged for a closer look

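Within the 6 CiPSC libraries, 50 named members were checked for a library standing apart from the other 5, and 17 had one. Another 12 have the same score in all 6. Chance gives about 1 in 20 groups, and most of these are whole-number scores near 0, where 1 step sets the result. CiPSC 3 was the highest in 10 of the 17, with Pcdh10 at 34, Pcdh17 at 24 and Cdh9 at 24 where the other 5 are at 0, Cdh13 at 6, Cdh22 at 4, Pcdhb3 at 3, Pcdha11 at 2, Pcdhb14 at 2, Cdh19 at 2 and Pcdhb20 at 1. CiPSC 3 also had the fewest genes listed at 0 of the CiPSC libraries (10.4%, the others 11.7% to 14.2%) and the lowest fibroblast marker sum (45). CiPSC 4 was highest for Pcdhb19 (5) and Pcdhgb1 (5), and CiPSC 5 for Pcdhga10 (18) and Cdh26 (4). CiPSC 2 was highest for Cdh3 (321) and Pcdh8 (20) and lowest for Cdh4 (4, the others 55 to 75).

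By the test of late against early effects of BrdU omission, 8.82% of the 68 members tested were called. This was not above the 13.6% of all genes. The members called were Pcdhgc5 (2.24 on the log2 scale), Pcdh7 (2.08), Pcdh10 (1.90), Pcdh11x (1.50), Pcdhb22 (1.16) and Cdh17 (-3.88). Of these only the Cdh17 call held whichever day was left out.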

How the results depend on the processing

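Without BrdU, members called higher numbered 31 to 44 and lower 2 to 5 when single days were left out; days 6 to 30 only gave 22, 1 and 3735 genes in all against 6946. Cdh13, not called, turned to 0.18 with days 6 to 30 only and lay between -0.36 and 0.030 over single days left out. Without Chir, leaving out single days gave 0 to 9 higher, 0 to 5 lower and 25 to 4994 of all genes against 4298; without the replicate block (day) 4 were lower, and 1 fit over 19 libraries called 6895 genes. Cdh4, not called, was 0.086 in that fit and -0.63 to 0.72 over days left out. For Chir against BrdU omission, no replicate block gave 5 higher, and days left out gave 5 to 8 higher, 2772 to 4783 genes and Cdh4 at -0.49 to 0.74. Leaving out the block changed no other count of calls by over 1.5 times. The late against early effect gave 8 higher with pseudocount 5, and 1 to 11 higher, 1 to 3 lower, 713 to 2472 genes and Cdh6 at -0.85 to 0.12 over days left out. Trends gave 0 to 1 rising, 13 to 23 falling, 1377 to 2862 genes and Cdh3 slopes of -0.13 to 1.26 over libraries left out. With pseudocount 5, 0 members were higher in CiPSC than MEF, and 10 with all chemicals and 25 without BrdU were higher on day 40 than CiPSC; CiPSC libraries left out gave 1 to 2 higher than MEF, and 0 to 2 and 1 to 2 lower than CiPSC on day 40 with all chemicals and without BrdU. The cause of these shifts was not tested, beyond fewer libraries in the fits that leave some out. All 14 beta calls without BrdU held under every other setting run except days 6 to 30 only, where 12 did. Unknown depth limits statements on scores near 0.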
